A study of Homo sapiens with 9 samples.

Results

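The core planar cell polarity genes examined here are *CELSR1*, *CELSR2*, *CELSR3*, *VANGL1*, *VANGL2*, *PRICKLE1*, *PRICKLE3*, *SCRIB*, *SMURF1* and *FJX1*, 10 of 27860 genes in the tables. They were listed by name, with no measured value in the rule, but with earlier results of these data known. The level of each was the sum of its RefSeq transcripts in FPKM, fragments scaled for both transcript length and library size. RNA-seq was performed on DU145, an established human prostate cancer cell line. The 9 libraries fall into 3 groups of 3, a control with a scrambled shRNA and 2 groups in which *FZD6* was targeted by shRNA1 or by shRNA2, all delivered in a lentiviral vector. The labels call each set a triplicate without saying whether separate cultures were used, so p-values measure the spread between these libraries, which may be technical.

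Planar cell polarity is the alignment of cells within the plane of an epithelium, at right angles to the apical-basal axis. In the core pathway, Frizzled receptors with Dishevelled sit on one face of a cell and VANGL with PRICKLE on the opposite face, while CELSR cadherins bridge neighboring cells and hold both complexes in place. FZD6, the receptor knocked down here, is a vertebrate Frizzled known for its part in the orientation of hair follicles. SCRIB is a scaffold that binds VANGL proteins, SMURF1 is a ubiquitin ligase that acts on PRICKLE, and FJX1 is the vertebrate relative of Four-jointed, a Golgi kinase of the Fat and Dachsous branch.

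*FZD6* was 20.5 ± 0.441 FPKM in control (SD, n = 3), 9.83 ± 0.376 with shRNA1 (n = 3) and 8.11 ± 0.598 with shRNA2 (n = 3), so the labels fitted their target gene. The log2 difference of FPKM + 1 between knockdown and control was −1.12 ± 0.0848 (SE, adjusted p = 0.00049, limma). The epithelial keratins *KRT8* and *KRT18* were at 202 to 238 and 260 to 296 FPKM, *EPCAM* at 17.3 to 23.4 and *CDH1* at 3.38 to 5.02. *KLK3*, which encodes prostate-specific antigen, reached at most 0.0138 FPKM, endothelial *PECAM1* and fibroblast *COL3A1* at most 0.0213 and 0.00504, and leukocyte *PTPRC* was listed at 0 in every library. The estimated depth was 31.22 to 39.08 M fragments, and libraries of shRNA2 lay further from their group mean (median absolute log2 deviation 0.0412 to 0.0648) than the others (0.0257 to 0.0345).

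In control cells the members spanned a wide range of levels. *FJX1* was highest at 29.5 FPKM, followed by *SCRIB* at 26.6, *SMURF1* at 12.1, *PRICKLE3* at 7.04, *VANGL1* at 6.62, *CELSR1* at 5.75, *CELSR2* at 3.55, *PRICKLE1* at 2.77, *CELSR3* at 2.15 and *VANGL2* at 0.64. Of the neighbors in this order, only *PRICKLE3* and *VANGL1* had overlapping ranges among the 3 control libraries. The order of the means was the same with shRNA2, and with shRNA1 it differed in that *PRICKLE1* stood above *CELSR2*, 2 genes whose ranges overlapped with either shRNA. FPKM are scaled per length, but *SCRIB* is summed over 2 listed loci with equal values. At 1 locus it was 13.3 FPKM in control, 1.1 times *SMURF1*, and with shRNA2 it overlapped *SMURF1*.

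**Figure D1:**
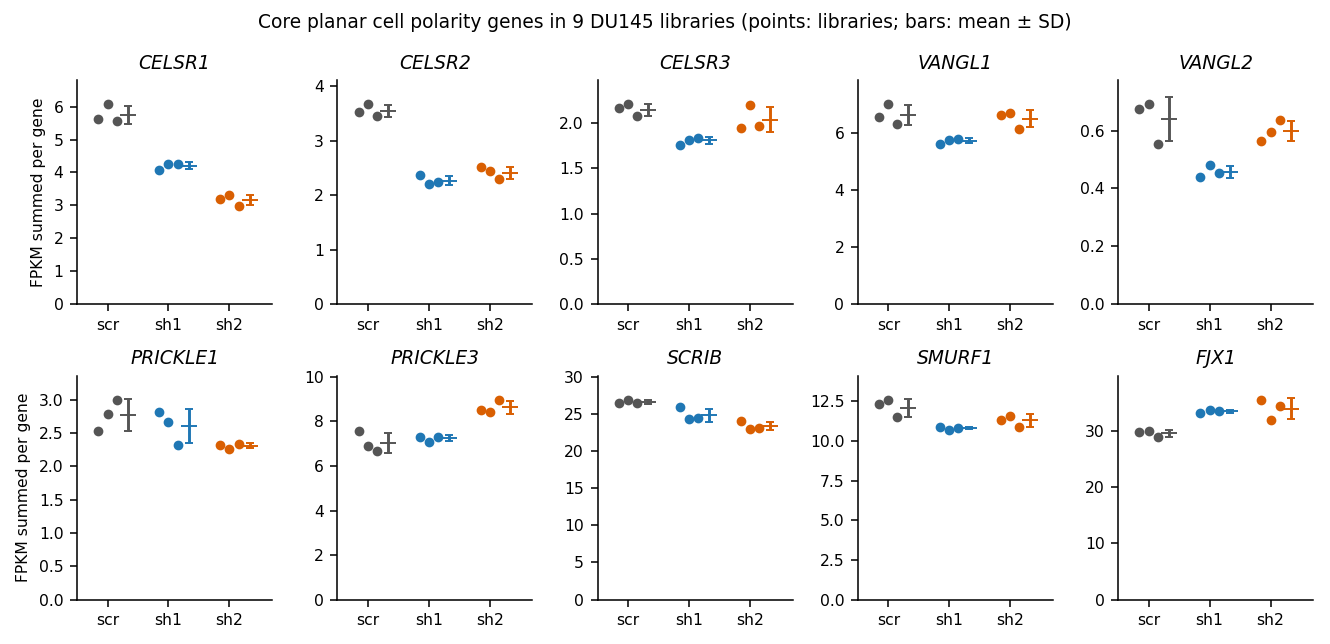
FPKM of each member (y axes from 0, a separate scale per gene) in the scrambled control (scr), shRNA1 (sh1) and shRNA2 (sh2) libraries, with points for the 3 libraries and a bar for mean ± SD. *CELSR1* and *CELSR2* lie well below control with both shRNAs, *FJX1* lies above control with both, and *PRICKLE3* is above control with shRNA2.

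With *FZD6* knockdown, *CELSR1*, *CELSR2*, *SCRIB* and *SMURF1* fell and *FJX1* rose. These were 5 of the 9 members that averaged 1 FPKM or more, the minimum for testing, and *VANGL2* at 0.565 FPKM was the member left out. Of all 12509 genes tested, 13.5% were called higher and 7.1% lower at an adjusted p under 0.05. In bulk RNA, fewer cells expressing a gene and less RNA per cell cannot be told apart. The 6 knockdown libraries lay wholly above the 3 control libraries for *FJX1* and wholly below them for *CELSR1*, *CELSR2* and *SCRIB*, which was so for 16.4% and 9.46% of tested genes. The median log2 difference was −0.12 over the 9 members and 0.03 over all tested genes. Because the members were chosen with earlier results of these data known, these counts and medians are descriptions and not tests of the group. With the trend of change on transcript length removed, described after the individual genes, the median over the members was −0.07, and *CELSR2* and *FJX1* were the members still called.

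The CELSR genes encode seven-pass transmembrane cadherins, and *CELSR1* and *CELSR2* showed the largest changes among the tested members. *CELSR1* (chromosome 22, 46361174 to 46537620, GRCh38) was 5.61, 6.07 and 5.56 FPKM in control, 4.08, 4.27 and 4.26 with shRNA1, and 3.19, 3.31 and 2.99 with shRNA2. The 3 groups did not overlap, and the shRNA2 libraries were lowest. The mean was 35.9% lower in knockdown than in control, and the log2 difference was −0.54 ± 0.101 (SE, adjusted p = 0.00935). After removal of the length trend this difference was −0.37 with adjusted p = 0.0568, so the call was lost. The knockdown fit treats both shRNAs as a single group, so its SE also holds the difference between them. With the shRNAs as separate groups, and before trend removal, the SE of each contrast with control was 0.0415. Each shRNA on its own remained past the threshold with the trend removed, at −0.20 (adjusted p = 0.0121) for shRNA1 and −0.55 (adjusted p = 0.000137) for shRNA2. Only 1 *CELSR1* transcript, NM_014246, was listed.

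*CELSR2* (chromosome 1, 109249539 to 109275751) was 3.53, 3.67 and 3.45 FPKM in control, 2.37, 2.21 and 2.24 with shRNA1, and 2.51, 2.44 and 2.29 with shRNA2. All knockdown libraries were below all control libraries, and the ranges of the 2 shRNAs overlapped. Its mean level was 34% lower in knockdown, with a log2 difference of −0.45 ± 0.0354 (adjusted p = 0.00049). It fell by 0.30 on the log2 scale with the length trend removed (adjusted p = 0.00384). *CELSR2* kept its call under each alternative in which limma tested its summed level. It was also the member called when single transcripts were tested, an alternative chosen after seeing the data, in which 218 of 19780 transcripts were called.

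*CELSR3* (chromosome 3, 48636463 to 48662886) was 2.17, 2.21 and 2.08 FPKM in control, 1.76, 1.82 and 1.84 with shRNA1, and 1.95, 2.20 and 1.97 with shRNA2. The shRNA1 libraries were all below control, whereas shRNA2 library 2 lay within the control range. The log2 difference between knockdown and control was −0.11 (95% interval −0.21 to 0.00, adjusted p = 0.129) and became 0.06 with the length trend removed (adjusted p = 0.349). Without shRNA2 library 2 it was −0.14 with adjusted p = 0.0188.

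Summed over the 3 CELSR genes, the level was 11.4 ± 0.44 FPKM in control (SD, n = 3), 8.28 ± 0.0663 with shRNA1 and 7.62 ± 0.357 with shRNA2. This was 27.6% and 33.4% lower than in control. *CELSR1* made up 50.2 ± 0.595% of the sum in control, 50.7 ± 0.919% with shRNA1 and 41.5 ± 0.265% with shRNA2. The share of *CELSR3* was 18.8 ± 0.34%, 21.8 ± 0.345% and 26.8 ± 1.16% in the same groups. The *CELSR1* share was thus lowest and the *CELSR3* share highest with shRNA2, without overlap of the means ± SD with the other groups, and the shares were not tested.

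**Figure D2:**
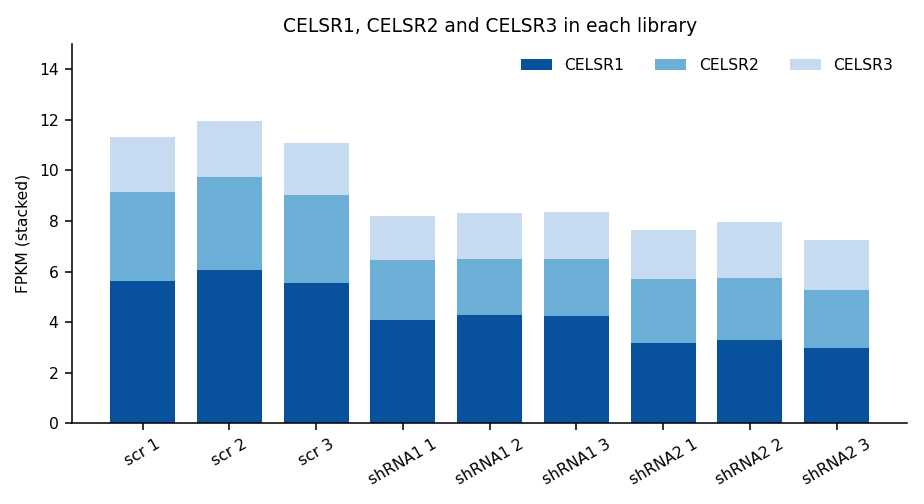
Stacked FPKM of *CELSR1*, *CELSR2* and *CELSR3* (y axis from 0) in each of the 9 libraries. The summed level is 11.1 to 11.9 FPKM in control (scr), 8.21 to 8.34 with shRNA1 and 7.25 to 7.96 with shRNA2, and the *CELSR1* segment is shortest with shRNA2.

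RefSeq promoter windows, 250 bases before to 50 after the start in GRCh38.p14, matched 8 of the 10 members, all but *CELSR1* and *SCRIB*. Those of *CELSR2*, which fell, and *FJX1*, which rose, are shown because they kept opposite calls after removal of the length trend. Capitals mark the GC box GGGCGG on either strand, the letters bound by SP1 and KLF factors. The window of *CELSR2* is chr1:109249289-109249588 on the plus strand, and that of *FJX1* is chr11:35618210-35618509 on the plus strand.
CELSR2: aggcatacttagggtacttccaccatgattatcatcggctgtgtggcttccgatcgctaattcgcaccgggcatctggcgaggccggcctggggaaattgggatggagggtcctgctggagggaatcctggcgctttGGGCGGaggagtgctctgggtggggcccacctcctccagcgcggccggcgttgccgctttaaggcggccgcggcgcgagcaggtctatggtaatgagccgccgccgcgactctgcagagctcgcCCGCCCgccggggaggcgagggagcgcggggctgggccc
FJX1: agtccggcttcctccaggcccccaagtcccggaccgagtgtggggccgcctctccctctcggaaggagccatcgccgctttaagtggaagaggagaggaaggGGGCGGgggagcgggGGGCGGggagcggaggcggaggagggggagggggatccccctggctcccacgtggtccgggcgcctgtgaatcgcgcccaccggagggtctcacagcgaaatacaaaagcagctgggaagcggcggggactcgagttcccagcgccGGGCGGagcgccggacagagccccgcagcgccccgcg

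The window of *CELSR2* was 68% G and C with 2 GC boxes, and that of *FJX1* was 72.3% with 3. All 8 matched members held at least 1 GC box, compared with 44.6% of 27305 promoters, and their G and C content was 67% to 81.7% against a median of 58.3%. The letters CTTTGAT, bound by TCF/LEF factors, were in 0 of the 8 windows and in 2.64% of all promoters. The letters GGAATG, bound by TEAD factors, were in 1 of the 8, that of *VANGL1*, and in 14% of all promoters. Both strands were searched, these 3 words do not contain one another, and a match describes letters and not binding.

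VANGL1 and VANGL2 are four-pass membrane proteins that recruit PRICKLE. *VANGL1* (chromosome 1, 115641970 to 115698221) was 6.54, 7.00 and 6.30 FPKM in control, 5.62, 5.74 and 5.79 with shRNA1, and 6.62, 6.70 and 6.15 with shRNA2. The shRNA1 libraries were all below control and the shRNA2 libraries overlapped it. The log2 difference was −0.10 (95% interval −0.23 to 0.03, adjusted p = 0.247) for knockdown against control and turned to 0.02 with the length trend removed. Nearly all *VANGL1* signal was assigned to NM_138959, at 8691 bases.

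*VANGL2* (chromosome 1, 160400564 to 160428670) was 0.676, 0.691 and 0.552 FPKM in control, 0.441, 0.480 and 0.454 with shRNA1, and 0.564, 0.595 and 0.635 with shRNA2. Its shRNA1 libraries were all below control, and shRNA2 libraries lay within the control range. When the minimum level was dropped so that it could be fitted, the log2 difference was −0.10 (adjusted p = 0.263) for knockdown, −0.17 (adjusted p = 0.0291) for shRNA1 and −0.04 (adjusted p = 0.601) for shRNA2. These values rest on an estimated 79.6 to 137 fragments per library, and at this level the added 1 FPKM compresses differences. *VANGL1* made up 91.2% of the summed VANGL level in control, 92.6% with shRNA1 and 91.5% with shRNA2.

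PRICKLE proteins are cytoplasmic LIM-domain partners of VANGL. *PRICKLE1* (chromosome 12, 42456757 to 42589746) was 2.53, 2.78 and 3.00 FPKM in control, 2.81, 2.67 and 2.32 with shRNA1, and 2.32, 2.26 and 2.34 with shRNA2. All shRNA2 libraries were below control, and shRNA1 overlapped it. The log2 difference was −0.13 (95% interval −0.27 to 0.01, adjusted p = 0.18) for knockdown and −0.19 (adjusted p = 0.0586) for shRNA2. NM_153026 held 86.3% of its FPKM.

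*PRICKLE3* (chromosome X, 49174802 to 49186373) was 7.56, 6.90 and 6.67 FPKM in control, 7.32, 7.09 and 7.32 with shRNA1, and 8.53, 8.42 and 8.98 with shRNA2. The shRNA2 libraries were above all others, and shRNA1 lay within the control range. The log2 difference was 0.15 (95% interval −0.02 to 0.32, adjusted p = 0.197) for knockdown, and *PRICKLE3* rose with shRNA2 by 0.26 (adjusted p = 0.00615). With the length trend removed, the shRNA2 difference was 0.21 (adjusted p = 0.0123). Its transcripts NM_006150 and NM_001307979 held 82.4% and 17.6% of its FPKM, but the latter ranged from 0.0036 to 2.27 among control libraries, so the split between them was not stable.

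*PRICKLE4*, a related gene with a mean of 1.56 FPKM in control, differed by 0.04 on the log2 scale (adjusted p = 0.733), and *PRICKLE2* did not exceed 0.0391 FPKM. *PRICKLE3* made up 61.8 ± 2.73% of the summed PRICKLE level in control, 63.3 ± 0.574% with shRNA1 and 68.3 ± 0.962% with shRNA2 (SD, n = 3 each). *PRICKLE1* made up 24.4 ± 2.58%, 22.8 ± 2.37% and 18.2 ± 0.243%. *PRICKLE3* was therefore the most abundant PRICKLE transcript in every group.

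*SCRIB* (chromosome 8, 143790925 to 143815773) was 26.5, 26.9 and 26.5 FPKM in control, 25.9, 24.3 and 24.4 with shRNA1, and 24.0, 23.0 and 23.1 with shRNA2. All knockdown libraries were below all control libraries, by a small margin. The mean was 9.49% lower in knockdown and the log2 difference was −0.14 ± 0.0374 (adjusted p = 0.0321). With the length trend removed, it was −0.10 with adjusted p = 0.166, and the call was also lost when any one of 7 libraries was left out, that is, all but shRNA1 library 1 and shRNA2 library 2 (adjusted p 0.0523 to 0.112). *SCRIB* is listed with identical FPKM at its chromosomal locus and on an alternate contig, so its sum is double the value of 1 locus. The tables do not show whether fragments were divided between the loci or counted at both, and the chromosomal locus alone was 13.3 ± 0.124 FPKM in control, 12.4 ± 0.452 with shRNA1 and 11.7 ± 0.273 with shRNA2.

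*SMURF1* (chromosome 7, 99027440 to 99144108) was 12.3, 12.6 and 11.5 FPKM in control, 10.9, 10.7 and 10.8 with shRNA1, and 11.3, 11.6 and 10.9 with shRNA2. The shRNA1 libraries were all below control, while shRNA2 library 2 exceeded the lowest control library. The mean was 8.86% lower in knockdown, with a log2 difference of −0.12 ± 0.0368 (adjusted p = 0.046), and −0.07 with adjusted p = 0.172 after removal of the length trend. Leaving out any library except control library 3 or shRNA2 library 2 also ended the call (adjusted p 0.055 to 0.174).

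The *SMURF1* signal was split between NM_181349, with 70.3% of its FPKM, and NM_001199847, with 29.7%, which were given the same length and lie at the same locus. NM_001199847 was 4.93, 4.36 and 3.52 FPKM in control, 0.903, 0.933 and 2.57 with shRNA1, and 3.47, 4.78 and 5.00 with shRNA2. The shRNA1 libraries were below all others, while the summed level moved little. NM_181349 went the other way, at 9.96, 9.79 and 8.24 FPKM with shRNA1 against 7.37, 8.19 and 7.94 in control. Fragments of overlapping transcripts are divided by estimate, so this split is less certain than the sum. The log2 difference between shRNA1 and control was −1.15 ± 0.261 for this transcript (adjusted p = 0.102, limma over 19780 transcripts) and 0.22 ± 0.109 for NM_181349 (adjusted p = 0.366), so neither passed the threshold.

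*FJX1* (chromosome 11, 35618460 to 35620865) was 29.8, 30 and 28.9 FPKM in control, 33.2, 33.6 and 33.5 with shRNA1, and 35.5, 31.8 and 34.3 with shRNA2. Every knockdown library was above every control library. The mean was 33.7 ± 1.22 in knockdown (SD, n = 6) and 29.5 ± 0.578 in control (n = 3), and the log2 difference was 0.18 ± 0.0346 (adjusted p = 0.00961). With the length trend removed it was 0.14 (adjusted p = 0.0325). Its only listed transcript, NM_014344, is 2450 bases long, close to the median of 2670 for tested genes.

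Each shRNA was then compared with control separately, with both comparisons sharing the control libraries. With shRNA1, *CELSR1* (−0.37, adjusted p = 0.00321), *CELSR2* (−0.48, 0.00124), *CELSR3* (−0.17, 0.0233), *VANGL1* (−0.18, 0.0274) and *SMURF1* (−0.15, 0.0343) fell and *FJX1* rose (0.17, 0.0255). Of all genes, 11.7% were called higher and 7.19% lower. *CELSR3* became 0.02 with the length trend removed (adjusted p = 0.772), *VANGL1* −0.05 (0.349), *SMURF1* −0.10 (0.0797) and *FJX1* 0.13 (0.0753). The same 4 genes also lost their calls without control library 1, control library 2 or any one of the shRNA1 libraries, and *FJX1* without control library 3 too, with adjusted p of 0.0627 to 0.105. Under median centring and quantile normalization, *FJX1* had adjusted p of 0.0503 and 0.0771. *SCRIB* was −0.10 with adjusted p = 0.0738, and 0.0495 without shRNA1 library 1.

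With shRNA2, *CELSR1* (−0.70, adjusted p = 0.000226), *CELSR2* (−0.41, 0.000592) and *SCRIB* (−0.18, 0.00714) fell, and *PRICKLE3* (0.26, 0.00615) and *FJX1* (0.19, 0.0128) rose. Of all genes, 15.3% were called higher and 11.4% lower. These 5 calls were kept with the length trend removed and when any single library was left out. *CELSR3* (−0.05), *VANGL1* (−0.02) and *SMURF1* (−0.09) had adjusted p of 0.338, 0.712 and 0.108. Leaving out 1 library brought a call for *CELSR3* (shRNA2 library 2, adjusted p = 0.0419), *SMURF1* (control library 3, 0.0434) and *PRICKLE1* (control library 1, 0.0448, or shRNA1 library 3, 0.0372).

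In the direct comparison, the difference between shRNA2 and shRNA1 was −0.32 ± 0.0415 on the log2 scale for *CELSR1* (adjusted p = 0.00523), the lower level being with shRNA2, and 0.23 ± 0.0447 for *PRICKLE3* (adjusted p = 0.0264), the higher level being with shRNA2. Of all genes, 1.92% were called higher and 4.79% lower with shRNA2. *FZD6* itself was lower with shRNA2, with a log2 difference of −0.25 ± 0.0501 (adjusted p = 0.0273). The *PRICKLE3* call was lost without any one of 5 libraries, those of shRNA1 and shRNA2 libraries 1 and 3 (adjusted p 0.0674 to 0.0972). It was also lost under quantile normalization (0.22, adjusted p = 0.0555). The *CELSR1* call was not lost under quantile normalization or by leaving out any library. For *VANGL1* (0.16, 95% interval 0.06 to 0.25, adjusted p = 0.0748) and *CELSR3* (0.11, 95% interval 0.03 to 0.20, adjusted p = 0.123), the difference between the shRNAs did not pass, although that of *VANGL1* did with the length trend removed (0.14, adjusted p = 0.0448) and under quantile normalization (adjusted p = 0.0418). For *CELSR2* it was 0.06 (95% interval −0.02 to 0.14) and for *FJX1* 0.02 (95% interval −0.08 to 0.11).

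**Figure D3:**
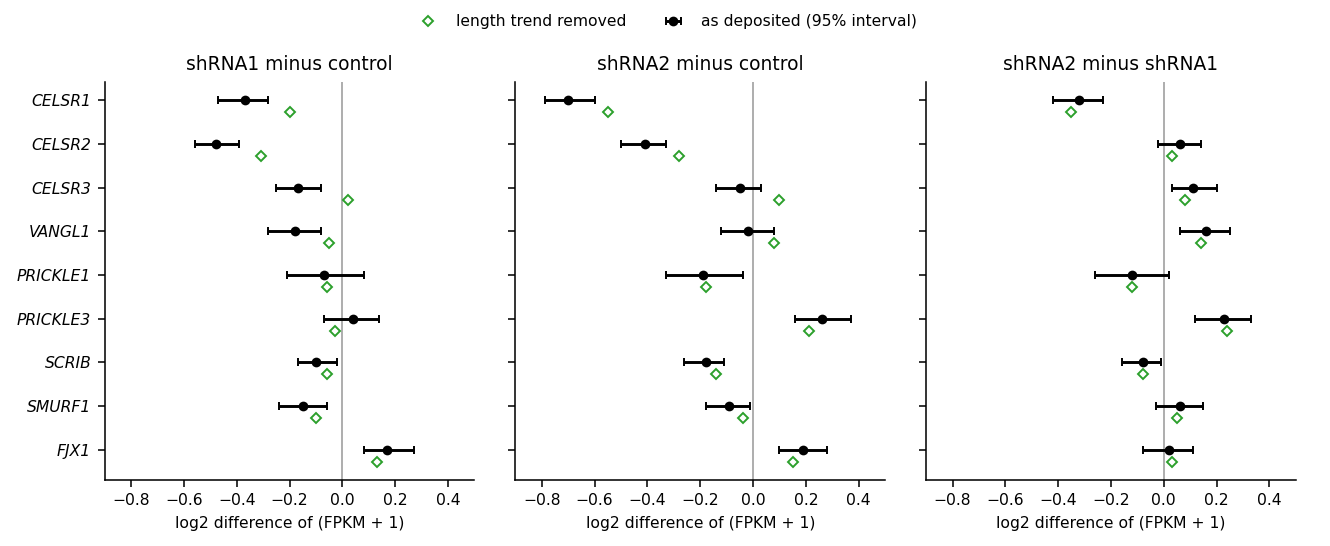
Differences of log2(FPKM + 1) for the 9 tested members, shRNA1 minus control, shRNA2 minus control and shRNA2 minus shRNA1, with 95% intervals (circles, bars) and with the length trend removed (open diamonds). *CELSR1* is at −0.37 with shRNA1 and −0.70 with shRNA2, *CELSR2* at −0.48 and −0.41, and *PRICKLE3* is set apart between the shRNAs by 0.23.

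Transcript length moved with these changes. Over 12092 tested genes with a length, Spearman's rank correlation between length and the log2 difference of knockdown and control was −0.445, a description across genes, which are not independent replicates. The median length of the members was 5460.5 bases. *CELSR1*, *CELSR2* and *CELSR3*, at 11389, 10534 and 11956 bases, were longer than 98.9%, 98.3% and 99.1% of genes, and *VANGL1* was longer than 96.7%. The trend fitted at the lengths of *CELSR1*, *CELSR2* and *CELSR3* was −0.16, −0.15 and −0.17, so *CELSR3* lay close to the trend, and *CELSR1* and *CELSR2* lay 0.37 and 0.30 below it. At the lengths of *SCRIB* and *SMURF1* the trend was −0.04 and −0.05, and at those of *PRICKLE3* and *FJX1* it was 0.06 and 0.04.

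The trend differed between libraries of one group. Relative to the control mean, the median deviation of the 537 tested genes of at least 8000 bases was −0.02, 0.05 and −0.02 in control, −0.15, −0.14 and −0.17 with shRNA1, and −0.13, −0.01 and −0.20 with shRNA2. In shRNA2 library 2, long genes were thus near the control level, and there *CELSR1* was 3.31 and *CELSR2* 2.44 FPKM, still below every control library. *CELSR3* and *VANGL1* in that library were 2.20 and 6.70 FPKM, within the control ranges. *VANGL1* was also within its control range in shRNA2 library 1, at 6.62 FPKM, where the median deviation of long genes was −0.13. In shRNA2 library 3 it was below that range, at 6.15 FPKM. What gave rise to the length trend was not tested.

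**Figure D4:**
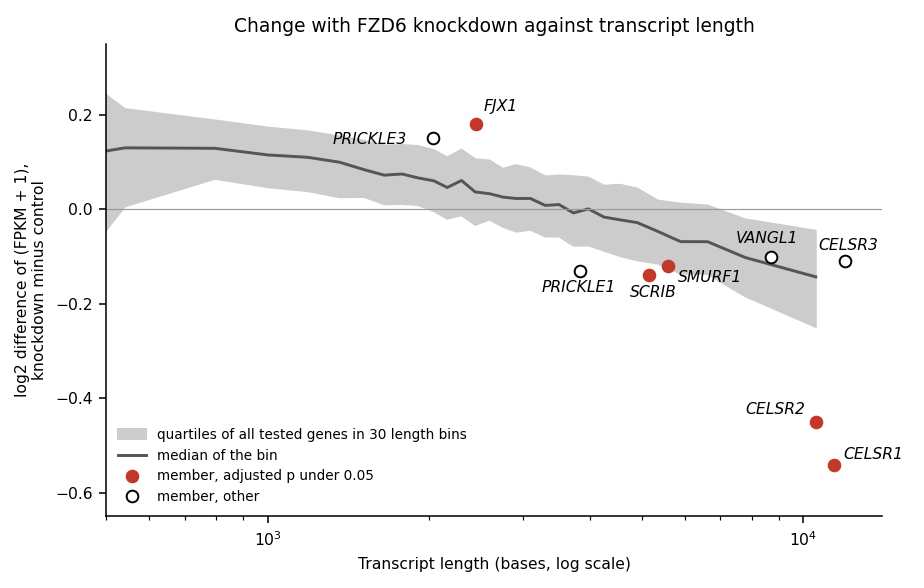
Log2 difference of FPKM + 1 between knockdown and control (y axis) against transcript length in bases (x axis, log scale, with the shortest genes off the axis) for the 9 tested members, over the median (line) and quartiles (band) of all tested genes in 30 length bins. *CELSR2*, at −0.45, lies below the band and *VANGL1*, at −0.10, within it, *CELSR1* and *CELSR3*, at −0.54 and −0.11, lie past the long end of the band, and *FJX1* lies above it. *PRICKLE1* and *SCRIB* also lie below the band and *PRICKLE3* above it, by smaller margins than *CELSR2*, and *SMURF1* is at its lower edge.

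Counts for other genes of the pathway are to be read against the 13.5% of all genes called higher and 7.1% called lower in knockdown. Of 8 other core genes, namely the Dishevelled genes *DVL1*, *DVL2* and *DVL3*, *PRICKLE2*, *PRICKLE4*, *FZD3*, *ANKRD6* and *INVS*, 6 were tested and 0 were called in knockdown by limma, with *DVL3* closest at −0.09 (adjusted p = 0.0682) and the 1 gene with an unadjusted p under 0.05. Their median log2 difference was −0.02. *DVL3* was called lower with shRNA1 alone (−0.11, adjusted p = 0.0267), a call lost with the length trend removed (−0.07, adjusted p = 0.271). Of 9 noncanonical Wnt ligands and receptors, 3 were tested and *PTK7*, a pseudokinase receptor of planar cell polarity, fell from 5.53 ± 0.222 to 4.86 ± 0.282 FPKM (log2 difference −0.15, adjusted p = 0.0426), a call lost with the length trend removed (adjusted p = 0.0881). With shRNA2 alone, *PTK7* stayed called with the trend removed (−0.20, adjusted p = 0.0143), and with shRNA1 alone it was not called. The median of the 3 tested genes was −0.10. *WNT5A* and *WNT11* did not exceed 0.518 and 0.313 FPKM. In the Fat and Dachsous list only *LIX1L* of 8 genes was tested (0.08, adjusted p = 0.278). *FAT1* was at 0.842 to 1.25 FPKM and *DCHS1* at most 0.0278, so these cadherins were near or below the minimum for testing.

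Of 20 effectors and regulators of planar cell polarity, 16 were tested, and *CDC42*, a small GTPase (26.3 to 28.6 FPKM, log2 difference 0.11, adjusted p = 0.0492), and *ARHGEF19*, a RhoA exchange factor (7.02 to 7.99 FPKM, 0.16, adjusted p = 0.0292), were called higher and 0 lower. At an unadjusted p under 0.05 there were 4 higher and 1 lower, and the median log2 difference was −0.03. With the length trend removed, *CDC42* (adjusted p = 0.535) and *ARHGEF19* (0.0704) lost their calls in knockdown. With shRNA2 alone, *ARHGEF19* stayed called after this removal (0.20, adjusted p = 0.00932), and with shRNA1 alone it was not called. *MAPK8*, which encodes the kinase JNK1, passed the threshold in knockdown with the trend removed (0.15, adjusted p = 0.0139, against 0.08 and 0.0952 before). *CPLANE1*, with a transcript of 11199 bases, was −0.21 in knockdown (adjusted p = 0.0543) and −0.05 with the length trend removed (adjusted p = 0.514). With shRNA2 alone, *CPLANE1* was called lower before this removal (−0.27, adjusted p = 0.0305) and after it (−0.12, adjusted p = 0.0311). With shRNA1 alone it was not called before (−0.16, adjusted p = 0.162) or after (0.02, adjusted p = 0.79). *RHOA* and *RAC1* were 405 and 222 FPKM in control and differed by 0.07 and −0.02.

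Apical-basal polarity genes set up the other axis of an epithelial cell. Of 22 listed, 18 were tested, 1 was called higher and 5 lower, where 13.5% and 7.1% of all genes were. The lower ones were *LLGL2* (12.8 to 10.7 FPKM, log2 difference −0.24, adjusted p = 0.0418) and *DLG5* (15.8 to 13.7, −0.20, 0.00984), which encode scaffolds acting with SCRIB, *DLG3* (3.59 to 3.16, −0.14, 0.00769), *ERBIN* (29.6 to 26.2, −0.17, 0.0117), a LAP family relative of SCRIB, and *PARD3B* (1.28 to 0.921, −0.25, 0.0125). *PARD6A*, of the PAR complex, rose from 9.70 to 11.1 FPKM (0.18, adjusted p = 0.0153). The median log2 difference was −0.06 over the 18 genes and 0.03 over all genes. With the length trend removed, *DLG5* (adjusted p = 0.0505) and *PARD6A* (0.222) lost their calls in knockdown. With shRNA2 alone, *DLG5* stayed called after this removal (−0.12, adjusted p = 0.0243), but not with shRNA1 alone (−0.08, 0.115).

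Among 8 ligases of the NEDD4 family related to SMURF1, 7 were tested. *NEDD4* rose from 28.5 ± 1.68 to 33 ± 2.40 FPKM (log2 difference 0.21, adjusted p = 0.0476). Neither shRNA1 (0.18, adjusted p = 0.123) nor shRNA2 (0.23, adjusted p = 0.0569) alone gave a *NEDD4* call. With the length trend removed, *NEDD4* was called in knockdown (0.27, adjusted p = 0.00622) and with either shRNA (adjusted p = 0.016 and 0.00496). *HECW1* fell from 1.99 ± 0.14 to 1.63 ± 0.0489 FPKM (−0.18, adjusted p = 0.00792), but not with the length trend removed (−0.07, adjusted p = 0.375). The closest relative, *SMURF2*, was 6.76 FPKM in control and differed by 0.03 (adjusted p = 0.459). The median log2 difference of the 7 was 0.02.

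For each tested member, the gene with the most similar log2 level over the 9 libraries was sought among those averaging 5 FPKM or more. *CELSR1* was most like *ATP2A2* (Pearson's r = 0.997), *CELSR2* most like *LAMB2* (0.996), *SMURF1* most like *TNRC18* (0.990), *SCRIB* most like *FAM53B* (0.981) and *FJX1* most like *DSE* (0.980). The others were *CELSR3* with *AEBP2* (0.974), *PRICKLE3* with *ANAPC5* (0.965), *VANGL1* with *CNOT6* (0.956) and *PRICKLE1* with *ERCC2* (0.937). Each is the top of 8607 or 8608 candidates over 9 libraries that share groups, depth and length trends.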

How the data were processed

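The authors prepared stranded mRNA libraries, aligned them with STAR and used Cufflinks to obtain FPKM. The deposited tables give FPKM with confidence bounds per RefSeq transcript and locus. Loci are those of hg38, per the submitters' processing notes, whereas mm10 is named in the methods. The values come scaled for depth and length, and no counts were used.

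Of 73240 accessions, 72645 were matched to genes through RefSeq (GRCh38.p14), and FPKM were summed per gene. The 42 genes with an entry of unusable status were left out. Genes averaging 1 FPKM or more were tested on log2(FPKM + 1), a scale that understates changes of low genes, in R 4.3.3 by limma 3.58.1, and p-values were adjusted by the method of Benjamini and Hochberg (threshold 0.05). Knockdown (6 libraries) against control (3) was fitted with 2 groups, and the shRNA contrasts with 3. The spread in the knockdown fit therefore includes any difference between the shRNAs. Lengths came from GENCODE v29, and the length trend was a lowess fit per library (span 0.3). Depth was estimated from the confidence bounds. Cufflinks divides fragments among overlapping transcripts, so single transcript values are less certain than sums.

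Members and lists were chosen with earlier results of these data known. All members are named, with the largest called genes of each list (at most 6), list genes given for context after their values were seen, and the most similar gene of each member. Alternatives were other pseudocounts (0.1, 0.01), filters (none, 5 FPKM), normalizations, length trend removal, the replicate block, primary chromosomes, protein-coding accessions, the 6 libraries compared, the study's criteria and leaving out each library. The fit was tried on simulated data with the same changes planted in both shRNA groups and independent noise for each gene. Differences between the shRNAs, or between libraries of a group beyond that noise, were not simulated. Figures used matplotlib 3.10.9 and tables pandas 2.3.3.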

Additional observations from a re-analysis of the deposited data

Results flagged for a closer look

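Among the members, 2 were set apart by a difference between the shRNAs, tested as the contrast of shRNA2 and shRNA1 by limma over 12509 genes. *CELSR1* was lower with shRNA2, by −0.32 on the log2 scale (3.16 against 4.2 FPKM, adjusted p = 0.00523), with all 3 shRNA2 libraries below all 3 shRNA1 libraries. *PRICKLE3* was higher with shRNA2, by 0.23 (8.64 against 7.24 FPKM, adjusted p = 0.0264), again without overlap. Unlike that of *CELSR1*, the *PRICKLE3* call was lost without any one of 5 libraries and under quantile normalization (adjusted p = 0.0555). Among the 6 knockdown libraries, no member had a highest or lowest library that stood apart by Dixon's ratio.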

How the results depend on the processing

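Removal of the length trend lowered the number of members called from 5 to 2 in knockdown and from 6 to 2 with shRNA1, and the number of genes called from 2578 to 1515 and from 2357 to 1518. With shRNA2 the members called stayed at 5, and between the shRNAs they went from 2 to 3 and the genes from 839 to 1186. It turned *CELSR3* to 0.06 and *VANGL1* to 0.02 in knockdown, to 0.10 and 0.08 with shRNA2, and *CELSR3* to 0.02 and *PRICKLE3* to −0.03 with shRNA1. Same-numbered libraries had correlated deviations of −0.071 to 0.111, and 5 of 9 libraries correlated best with their own number, so the numbers were not taken to pair libraries. With the replicate block, 2377, 2525, 3558 and 802 genes were called in knockdown, shRNA1, shRNA2 and between the shRNAs, with 5, 6, 5 and 2 members. The block with the length trend removed left 1094 genes and 1 member in knockdown, where *FJX1* had adjusted p = 0.06, and 1311 genes and 2 members with shRNA1, and gave the same reversed values as the trend removal without the block.

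A minimum of 5 FPKM, under which fewer members are tested, left 3, 3 and 3 members called in knockdown, shRNA1 and shRNA2 and 1 between the shRNAs. The study's criteria gave 361, 450, 590 and 268 genes and 2, 2, 3 and 1 members in the 4 comparisons. They were applied here to summed genes that passed the minimum level, on log2(FPKM + 1), and the knockdown count differs from the study's own. RefSeq transcripts one by one, added after seeing the data, gave 218, 78, 533 and 93 calls and 1, 2, 2 and 0 members by limma. Fitting only the 6 libraries compared gave 2117 genes for shRNA2 and 337 between the shRNAs. Leaving out each library gave 997 to 3255 genes and 3 to 6 members in knockdown, 917 to 3538 and 2 to 6 with shRNA1, 2097 to 4195 and 5 to 6 with shRNA2, and 333 to 1172 and 1 to 2 between the shRNAs. *VANGL1* with shRNA2 ranged from −0.05 to 0.01 over these, turning to 0.01 without control library 2 or shRNA2 library 3, and *FJX1* between the shRNAs to −0.02 without shRNA2 library 1. Apart from the removal of the length trend, where the trend itself was subtracted, the cause of these changes was not tested. Of 176 values of single members in knockdown under the alternatives, 149 kept their direction and side of the threshold, a total that includes members not called. Of the called members, *SCRIB* stayed called in 11 of 20 alternatives and *SMURF1* in 9 of 20. *CELSR1* did so in 17 of 19, *CELSR2* in 19 of 19 and *FJX1* in 19 of 20. Precision is limited by having 3 libraries in a group.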
